A study of Mus musculus with 48 samples.

Results

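M6 and Met-1 are mouse mammary tumor lines of FVB/N origin, and this comparison set the 4 tumors titled M6 against the 4 tumors titled Met-1, 8 of the 48 tumors of a series of 12 models. The tumors were assigned to their models by their titles. The labels give both lines the strain FVB/N and an origin from genetically engineered mouse tumors, but they do not name the engineered gene, and they give no age for the recipients. Cells of 1 line per model were placed in the mammary fat pad of immunocompetent mice of the same strain, and each primary tumor was hybridized to its own Affymetrix Mouse Gene 1.0 ST array. The 4 tumors of a model were therefore separate grafts of the same cells, and the differences below compare 2 lines and the host tissue they had drawn in, not the engineered genes alone. Values are log2 array signals, so a difference of 1 is a 2-fold change, and a difference is M6 minus Met-1 throughout.

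Mammary epithelium is built from luminal cells, which carry keratins 8 and 18 and make milk in lactation, and from basal cells, which carry keratins 5 and 14. Mammary tumors can keep luminal features, take on basal ones, or turn on keratins of the epidermis, as squamous cells do. A tumor piece also holds blood vessels, fibroblasts and immune cells, and its array signal sums all of them. In bulk tissue, fewer cells of a type and less RNA per cell cannot be told apart.

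Of 19938 genes, 3372 (16.9%) were higher and 2952 (14.8%) lower in M6 than in Met-1 tumors at an adjusted p under 0.05 (limma with 1 group per model over the 48 tumors, Benjamini-Hochberg adjustment over all genes), and "called" below means past this threshold. Differences of at least 1 on the log2 scale were called for 680 genes (3.41%) higher and 830 (4.16%) lower. All 4 M6 tumors lay above all 4 Met-1 tumors for 2929 genes (14.7%) and below them for 1992 (9.99%), 4921 genes (24.7%) in all. For any gene whose groups did not overlap, the exact permutation test of 4 against 4 tumors gave a 2-sided p of 0.0286, the smallest that 70 arrangements allow. The median difference over all genes was 0.03. The shares of 16.9% and 14.8% are the background for each list below, and a list with shares near them is given for its members and not as a result about the list.

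One tumor stood apart. Across all probe sets, Met-1 replicate 2 correlated at 0.96 to 0.97 with the other Met-1 tumors and at 0.99 with F311 replicate 1, whereas the other 7 tumors each correlated best with a tumor of their own model. Without Met-1 replicate 2, 3292 genes (16.5%) were higher and 3133 (15.7%) lower in M6. Of the calls made with it, 2902 of 3372 increases and 2558 of 2952 decreases passed the same way without it, and none reversed. With only the 8 tumors in the fit, 2343 genes (11.8%) were higher and 1788 (8.97%) lower.

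The markers showed epithelial tumors in both models. The luminal keratin gene Krt8 had 12.36 to 12.72 in M6 and 11.67 to 12.62 in Met-1 tumors. Krt18 lay at 11.97 to 12.55 and 11.07 to 12.24, and the epithelial adhesion genes Epcam and Cdh1 lay at 11.02 to 11.90 and 10.40 to 11.49 and at 11.08 to 12.10 and 10.01 to 11.34. None of these 4 genes was called, with differences of 0.30 ± 0.19, 0.58 ± 0.41, 0.41 ± 0.65 and 0.89 ± 0.43 (SE) and adjusted p from 0.117 to 0.705. Ptprc, which encodes the leukocyte surface protein CD45, was 2.03 ± 0.37 lower in M6 (adjusted p = 2.7e-05), at 7.69 to 8.69 against 9.15 to 12.03. The adipocyte hormone gene Adipoq had 6.37, 10.39, 7.52 and 6.43 in the M6 tumors and 9.53, 11.13, 7.74 and 7.63 in the Met-1 tumors. The B cell receptor gene Cd79a was at 4.69 to 4.86 in M6, at 4.92, 7.34 and 5.01 in Met-1 replicates 1, 3 and 4, and at 10.86 in Met-1 replicate 2.

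A pair of genes, given with the comparison and not found by it, separated the models in opposite directions. Their values and the p-value below are therefore no independent evidence of the separation. 2310057J18Rik, listed in RefSeq also under the name Leg1, had 12.01, 10.60, 11.58 and 12.26 in the Met-1 tumors and 4.80, 4.71, 4.89 and 4.81 in the M6 tumors. Its signal was therefore high in every Met-1 tumor and near the low end of the table in every M6 tumor, and the means of the other 10 models lay between 4.77 and 4.89. The difference was -6.81 ± 0.16 (SE), and -7.15 without Met-1 replicate 2. This SE rests on the spread within all models of the fit pooled. It is therefore not a measure of the spread of the Met-1 values, which ran from 10.60 to 12.26. No fold is given because the M6 signal was not shown to be above background, and the folds below are ratios of array signals, which may understate a difference where one model is near the low end. Sox11, a transcription factor of embryonic nerve and epithelial development, had 9.47, 9.55, 8.87 and 9.14 in M6 and 5.82, 5.28, 5.63 and 5.70 in Met-1 tumors. Here M6 was the model that stood apart, since the means of the other 10 models lay between 5.28 and 5.58. The difference of Sox11 was 3.65 ± 0.10 (SE), or 12.6-fold (limma over all models, adjusted p = 1.6e-27). The SE and p-value of Sox11 rest on the same pooled spread, while its SDs were 0.31 in M6 and 0.23 in Met-1 tumors. With only the 8 tumors in the limma fit, the adjusted p of Sox11 was 4.96e-05.

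**Figure D1:**
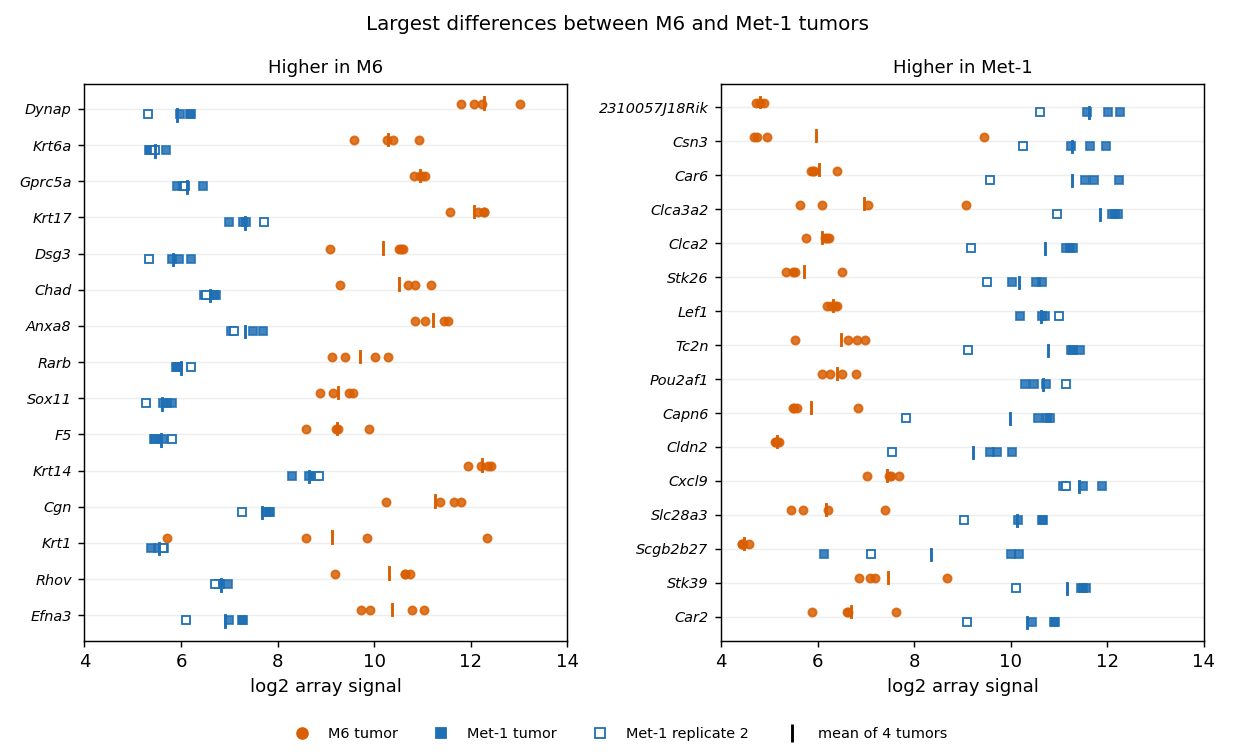
Log2 array signal (x axis) of 2310057J18Rik and of the 15 genes with the largest differences in each direction, in each M6 tumor (circles) and Met-1 tumor (squares), with the mean of each group as a tick. The 15 genes of each direction were picked among genes whose M6 and Met-1 tumors do not overlap, so their lack of overlap is not a result. Met-1 replicate 2 (open square) lies nearest to M6 among the Met-1 tumors for 11 of the 15 named genes higher in Met-1.

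The 15 named genes with the largest increases in M6 held several of the squamous epithelium. These 15 were picked among genes called with and without Met-1 replicate 2 whose groups did not overlap, predicted and clone-named genes left aside. Dynap, a membrane protein gene, had 12.07, 11.79, 13.02 and 12.23 in M6 and 5.98, 5.32, 6.21 and 6.19 in Met-1 tumors, a difference of 6.35 ± 0.83 (SE) or 81.8-fold. Krt6a, Krt17, Dsg3, Krt14, Krt1 and Anxa8, genes of keratins, a desmosomal cadherin and an annexin of stratified epithelia, were 3.58 to 4.83 higher. Cgn, which encodes the tight junction protein cingulin, was 3.59 ± 0.22 (SE) higher, with 11.81, 11.36, 10.24 and 11.64 against 7.82, 7.27, 7.76 and 7.84. Rarb, the retinoic acid receptor beta, was 3.71 ± 0.19 (SE) higher, with 10.28, 9.13, 9.39 and 10.01 against 5.91, 6.22, 5.95 and 5.89. The others were Gprc5a, a receptor gene induced by retinoic acid (4.82), Chad, which encodes the cartilage protein chondroadherin (3.90), the coagulation factor gene F5 (3.65), Rhov (3.48) and the ephrin ligand gene Efna3 (3.46).

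M6 had the highest mean of all 12 models for 12 of these 15 genes, and Dynap, Gprc5a and Anxa8 were the exceptions. For Gprc5a the model that stood apart was Met-1, at 6.13 ± 0.22 (SD, n = 4), since M6 had 10.95 ± 0.09 and the other 10 models had means of 8.85 to 11.27. For Dynap, D2A1 reached a mean of 12.68, above the 12.28 ± 0.52 (SD, n = 4) of M6.

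Among the 15 named genes with the largest decreases, picked in the same way, Met-1 had the highest mean of the 12 models for 14. The exception was Cxcl9. Csn3, which encodes the milk protein κ-casein, had 11.96, 10.26, 11.64 and 11.24 in Met-1 tumors and 4.96, 9.45, 4.69 and 4.74 in M6 tumors. M6 replicate 2 was thus close to Met-1 for this gene and the other M6 tumors were not, and the difference was -5.31 ± 0.88 (SE). Car6, the secreted carbonic anhydrase of saliva and milk, was 38-fold lower in M6, with 5.92, 6.39, 5.87 and 5.90 against 12.23, 9.57, 11.54 and 11.72. Car2, a carbonic anhydrase of the cytoplasm, was 12.5-fold lower. Clca3a2 and Clca2, of the family named for chloride channel accessory proteins, were 29.6-fold and 24.6-fold lower, and Cldn2, which encodes a claudin that forms cation pores in tight junctions, was 16.7-fold lower. The kinase genes Stk26 (21.9-fold) and Stk39 (13-fold), Slc28a3, a nucleoside transporter gene (15.4-fold), Capn6, a calpain family gene (17.5-fold), Tc2n (19.4-fold) and the secretoglobin gene Scgb2b27 (14.7-fold) were lower as well. Capn6 in Met-1 replicate 2, at 7.83, lay between the other Met-1 tumors (10.56 to 10.82) and the M6 tumors (5.49 to 6.85).

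Pou2af1, known as a transcriptional coactivator of B cells, was 4.25 ± 0.69 (SE) lower in M6, with 6.80, 6.25, 6.10 and 6.50 against 10.72, 11.13, 10.30 and 10.48. The high values were seen in all 4 Met-1 tumors, including replicates 1 and 4, where Cd79a was at 4.92 and 5.01. Clca3a2 and Scgb2b27 belong to families of similar genes, as do the keratins and the H2 genes below, and the array's probes may not separate such copies fully.

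The keratin difference extended to a wider set of epidermal genes. From a list of epidermal keratin, desmosome and cornification genes, written after the largest differences had been seen and so no independent evidence, 34 of 51 measured members were higher and 1 lower, with a median difference of 1.14. These counts were 31 and 2 without Met-1 replicate 2 and 19 and 1 with only the 8 tumors in the fit. The keratins Krt14 and Krt17 were even across the M6 tumors, at 11.93 to 12.42 and 11.56 to 12.28, and no Met-1 tumor was above 8.85 and 7.71. Krt6a, a keratin of activated epidermis, had 10.39, 10.26, 9.58 and 10.94 in M6 and 5.33 to 5.69 in Met-1, and the highest of the other 10 models was R3T with a mean of 6.70. Pkp1, a plakophilin of desmosomes (3.22 ± 0.38, SE), and Trim29, a basal cell gene (3.01 ± 0.55, SE), were higher in all 4 M6 tumors.

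Genes of terminal epidermal differentiation varied among the M6 tumors. Krt1 had 12.33, 9.86, 5.71 and 8.59 in M6 replicates 1 to 4, Krt10 had 12.16, 10.01, 6.86 and 9.69, and Krt6b had 10.76, 8.38, 5.26 and 6.46. All 3 were at 5.32 to 6.72 in the Met-1 tumors, so that M6 replicate 1 was highest and M6 replicate 3 was at or near the Met-1 level for all 3. They were called in the fit over 48 tumors (adjusted p = 0.000611, 0.000713 and 0.000249) and not with only the 8 tumors (adjusted p = 0.0759, 0.0537 and 0.167). M6 replicate 3 also had the lowest score of the epithelial junction and keratin list among the M6 tumors, 0.71 against at least 1.61, a score being the average, over the members, of how far the log2 signal of the tumor lay from the 48-tumor mean of the gene. The same tumor had the highest score of the mesenchymal transition list, 0.26 against at most -0.50 in the other M6 tumors. Krt23 was the 1 epidermal gene called lower, by 1.55 ± 0.31 (SE).

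Not every basal gene followed. Krt5, the usual partner of Krt14, had 10.81, 9.73, 6.82 and 9.85 in M6 and 7.49, 9.54, 6.85 and 7.69 in Met-1 tumors, and was not called (1.41 ± 0.92, adjusted p = 0.267). Trp63, the transcription factor of basal and squamous cells, had 7.37, 7.36, 8.98 and 7.32 in M6 and 7.09 to 7.70 in Met-1, and was not called (0.48 ± 0.32). Of 13 basal and myoepithelial genes, Krt6a, Krt17 and Krt14 were higher and Acta2, the smooth muscle actin gene, was lower (-0.74 ± 0.29, adjusted p = 0.0449). The call of Acta2 was lost when any tumor but M6 replicate 2 or Met-1 replicate 4 was left out, and stood at -0.66 (adjusted p = 0.11) without Met-1 replicate 2 and at -0.62 (adjusted p = 0.15) without M6 replicate 1.

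**Figure D2:**
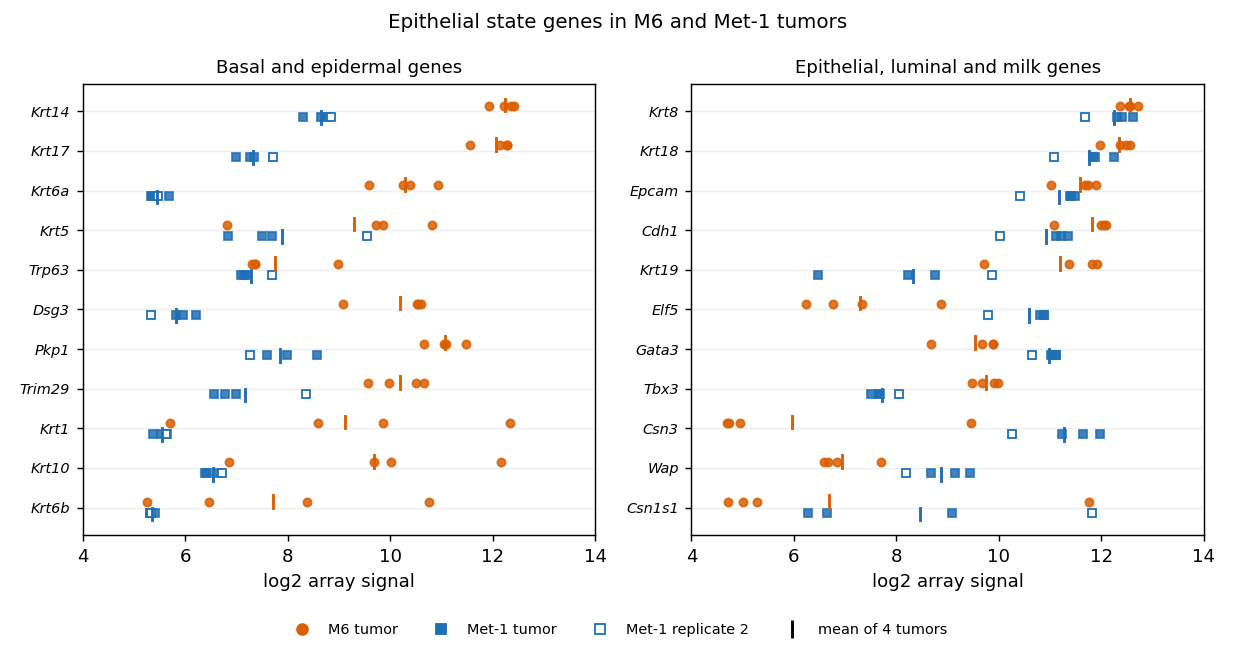
Log2 array signal (x axis) of basal and epidermal genes (left) and of epithelial, luminal and milk genes (right) in each M6 tumor (circles) and Met-1 tumor (squares, replicate 2 open), with the mean of each group as a tick. Krt14, Krt17 and Krt6a are high in all 4 M6 tumors, Krt1, Krt10 and Krt6b spread over several log2 units among them, and Csn3 and Csn1s1 are high in M6 replicate 2.

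Of the 17 measured genes of luminal identity and hormone response, 3 were higher and 2 lower, close to the shares of all genes (16.9% and 14.8%). Elf5, the transcription factor of milk-forming luminal progenitors, had 10.89, 9.79, 10.81 and 10.87 in Met-1 and 7.33, 8.87, 6.24 and 6.75 in M6 tumors. It fell by 3.29 on the log2 scale (SE 0.61), and Met-1 had the highest mean of the 12 models. Gata3, which maintains luminal cells, was at 10.64 to 11.12 in Met-1 and at 8.68 to 9.89 in M6, a difference of -1.43 ± 0.39 (SE). Tbx3, a T-box factor of the hormone-sensing luminal lineage, went the other way (9.48 to 9.97 in M6, 7.50 to 8.05 in Met-1, 2.04 ± 0.25), as did Elf3, an epithelial ETS factor (1.65 ± 0.29), and Aldh1a3, which makes retinoic acid (1.46 ± 0.34). The luminal keratin Krt19 had 11.92, 11.81, 9.71 and 11.36 in M6 and 8.75, 9.86, 6.47 and 8.22 in Met-1 tumors, and the groups overlapped by 1 tumor each (2.88 ± 0.72, adjusted p = 0.00175). Of the 26 epithelial junction and keratin genes 4 were higher and none lower, led by Krt19, the claudin gene Cldn4 (1.72 ± 0.41) and Ovol1 (0.64, adjusted p = 0.0366). No gene of this list was called lower at an adjusted p under 0.05, but the claudin genes Cldn2 and Cldn1, not on it, were. The call of Ovol1 was lost without M6 replicate 1, 2 or 4 or Met-1 replicate 1 or 2, at 0.51 to 0.61.

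Of 12 milk protein and secretory genes 3 were lower in M6 and none higher. Csn3 was described above. Wap, a whey protein gene, had 6.83, 7.70, 6.66 and 6.59 in M6 and 8.67, 8.18, 9.44 and 9.15 in Met-1 (-1.92 ± 0.17), and Xdh, the xanthine dehydrogenase of milk fat globules, was -1.80 ± 0.25. Csn1s1, an α-casein gene, had 5.28, 11.75, 5.01 and 4.71 in M6 and 6.64, 11.82, 9.09 and 6.27 in Met-1 tumors. Its 2 highest tumors were the replicates numbered 2, and it was called only without M6 replicate 2 (-3.45, adjusted p = 0.0246), when 5 genes of the list were lower. The score of this list was 2.17 in M6 replicate 2 and 2.68 in Met-1 replicate 2, and these tumors also had the highest adipocyte scores of their models, 1.26 and 1.96. The part of this in the milk gene values was not tested. Csn3 and Wap were lower without both tumors (adjusted p = 8.4e-08 and 4.1e-18).

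Genes of the cell division cycle formed the most uniform group that was higher in M6. Before division a cell licenses its replication origins with the MCM proteins, and E2F transcription factors, held back by the Rb family, turn on the genes that make this and DNA synthesis possible. Of 33 measured DNA replication genes 31 were higher in M6 and none lower, with a median difference of 1.16, and the same counts were found with any 1 tumor left out and with only the 8 tumors in the fit. All 4 M6 tumors lay above all 4 Met-1 tumors for 32 of the 33. The scores ran from 0.84 to 0.93 in M6 and from -0.55 to -0.08 in Met-1 tumors, and M6 had the highest mean of the 12 models for 30 genes. The 2 members not called were Ccne1, a cyclin E gene (0.37, adjusted p = 0.167), and Tk1, thymidine kinase, at 10.48 to 10.69 in M6 and 9.72 to 10.89 in Met-1.

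The leading members were Cdt1, which loads the MCM helicase, Uhrf1, which carries DNA methylation through replication, E2f7, an E2F of the repressing kind, and Cdc45, part of the active helicase. Cdt1 had 11.41, 11.18, 10.90 and 11.05 in M6 and 9.03, 9.30, 9.18 and 9.71 in Met-1, a difference of 1.83 ± 0.20 (SE) or 3.55-fold (adjusted p = 3e-09). Uhrf1 had 10.71, 10.82, 10.58 and 10.76 against 9.25, 8.88, 9.31 and 9.22 (1.55 ± 0.19). E2f7 had 10.09, 9.88, 9.76 and 9.91 against 8.47, 8.02, 8.44 and 8.52 (1.55 ± 0.15), and Cdc45 had 10.40, 10.18, 10.33 and 10.25 against 9.14, 8.23, 8.94 and 8.81 (1.51 ± 0.21). The spread within each model was small beside the gap between them for each of the 4 genes.

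The promoters of these 4 genes are shown because their genes rose together and E2F factors are known to bind short GC-rich sites in such promoters. Each sequence is the RefSeq promoter of build GRCm38.p6, 250 bases before to 50 bases after the start of the gene, on the strand of the gene, at chr8:122567765-122568064 for Cdt1 (plus strand), chr17:56303087-56303386 for Uhrf1 (plus), chr10:110745189-110745488 for E2f7 (plus) and chr16:18811923-18812222 for Cdc45 (minus). Capitals mark the letters TTCCCGC or TTGGCGC on either strand (GCGGGAA or GCGCCAA when read on the strand shown).
Cdt1: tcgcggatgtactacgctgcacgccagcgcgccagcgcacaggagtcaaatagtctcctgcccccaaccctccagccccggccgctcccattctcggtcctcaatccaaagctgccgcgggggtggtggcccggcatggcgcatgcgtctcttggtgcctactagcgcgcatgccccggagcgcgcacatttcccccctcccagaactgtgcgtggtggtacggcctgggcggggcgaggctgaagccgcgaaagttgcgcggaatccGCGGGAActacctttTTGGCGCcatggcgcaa
Uhrf1: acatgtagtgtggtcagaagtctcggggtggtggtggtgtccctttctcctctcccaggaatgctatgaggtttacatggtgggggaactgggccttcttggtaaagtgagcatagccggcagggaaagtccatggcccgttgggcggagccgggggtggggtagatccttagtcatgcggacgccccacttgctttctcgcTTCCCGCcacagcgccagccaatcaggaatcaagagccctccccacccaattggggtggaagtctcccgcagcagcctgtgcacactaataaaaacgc
E2f7: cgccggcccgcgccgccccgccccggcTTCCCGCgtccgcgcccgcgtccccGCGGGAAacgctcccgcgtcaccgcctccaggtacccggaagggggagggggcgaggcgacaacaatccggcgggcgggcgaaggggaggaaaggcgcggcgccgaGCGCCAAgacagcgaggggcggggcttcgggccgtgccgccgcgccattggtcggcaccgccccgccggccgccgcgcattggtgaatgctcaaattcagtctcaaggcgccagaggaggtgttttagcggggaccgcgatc
Cdc45: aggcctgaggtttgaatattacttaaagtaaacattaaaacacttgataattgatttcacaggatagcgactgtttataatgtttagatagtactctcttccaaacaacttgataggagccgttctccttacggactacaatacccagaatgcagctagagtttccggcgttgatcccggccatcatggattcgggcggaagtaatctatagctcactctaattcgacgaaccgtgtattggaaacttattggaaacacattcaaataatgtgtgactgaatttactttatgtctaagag
Cdt1 held 2 matches, Uhrf1 1, E2f7 3 and Cdc45 none. Of the 33 replication genes 28 had a promoter in the RefSeq table, and 16 of these (57.1%) held a match, against 1874 of 27025 promoters (6.93%) of all genes, 1475 of 15563 (9.48%) of genes on the array and 2 of 19 (10.5%) of the mitosis genes. A match is a stretch of letters and not a measured binding site. The list is of a kind of gene that E2F factors are known to turn on, so its share is a property of the list. It says nothing of M6 against Met-1, and a part of E2F in the difference was not tested.

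Of 24 measured mitosis genes 22 were higher in M6 and none lower, with a median difference of 0.98. Kif2c, a kinesin of the centromere, had 9.95 to 10.16 in M6 and 8.77, 7.74, 8.81 and 8.93 in Met-1 (1.47 ± 0.31). Cenpf, a kinetochore protein gene (1.45 ± 0.28), Foxm1, the transcription factor of mitotic genes (1.43 ± 0.25), Top2a (1.35 ± 0.24) and Mki67, the Ki-67 gene (0.81 ± 0.18), were higher in the same way. Plk1 (0.48, adjusted p = 0.177) and Birc5 (-0.05, adjusted p = 0.926) were the 2 not called. The lowest Met-1 tumor was replicate 2, with a mitosis score of -0.97 against at least -0.14 in the other 3 and 0.61 to 0.77 in M6. Without it 19 of the 24 were higher and the median was 0.77.

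The regulators of the cycle divided. Of 15 D cyclins, kinases, kinase inhibitors and Rb family genes, 5 were higher and 2 lower. Rbl1, the Rb relative p107 and itself a replication phase gene, had 10.13 to 10.33 in M6 and 9.22 to 9.38 in Met-1 (0.90 ± 0.12). Cdk2, the partner of cyclin E, was 0.70 ± 0.10 higher and Cdkn1b, which encodes the inhibitor p27, was 0.70 ± 0.08 higher. The 2 D cyclin genes called were lower in M6. Ccnd1 had 11.76, 11.75, 11.34 and 11.62 against 12.72, 11.77, 12.51 and 12.80 (-0.83 ± 0.18), and Ccnd2 had 8.25, 9.11, 8.84 and 8.59 against 9.52, 11.29, 9.64 and 9.28 (-1.24 ± 0.34). Ccnd2 was not called without Met-1 replicate 2 (-0.78, adjusted p = 0.0559).

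Of 22 measured genes of p53 and its targets 4 were higher and 3 lower. Perp, a desmosomal and p53-induced gene (1.84 ± 0.38), Phlda3, an inhibitor of Akt (1.42 ± 0.13), and Tnfrsf10b, a death receptor gene (0.96 ± 0.30), led the increases. Btg2, an antiproliferative gene (-0.96 ± 0.34), Trp53inp1 (-0.94 ± 0.30) and Zmat3 (-0.82 ± 0.21) were the decreases. Without Met-1 replicate 2, Zmat3 was the 1 decrease left of the list, and Tnfrsf10b (0.79, adjusted p = 0.0546), Btg2 (-0.47, adjusted p = 0.259) and Trp53inp1 (-0.56, adjusted p = 0.135) were not called. Without M6 replicate 1 Btg2 and Trp53inp1 were not called either (-0.83, adjusted p = 0.0901, and -0.77, adjusted p = 0.0719), nor was Btg2 without M6 replicate 2 (-0.93, adjusted p = 0.0542) or 4 (-0.88, adjusted p = 0.0687).

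**Figure D3:**
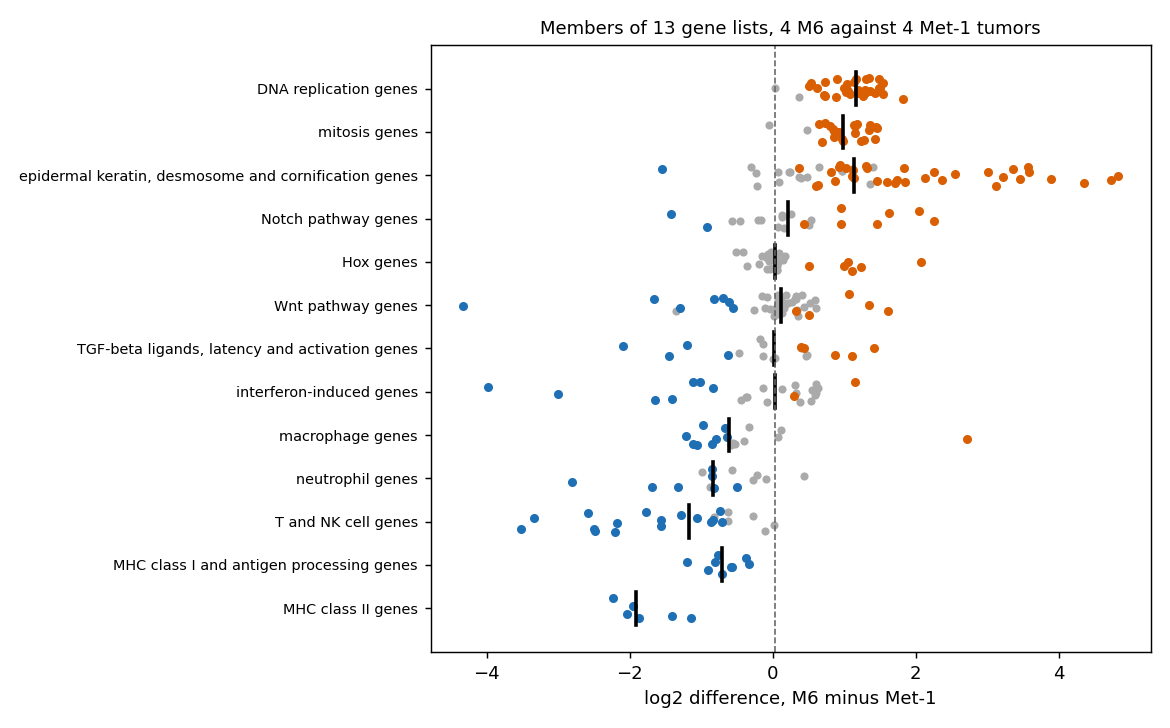
Log2 difference, M6 minus Met-1 (x axis), of each measured member of 13 gene lists (y axis), with members called higher in orange, called lower in blue and not called in grey. Black ticks are list medians and the dashed line is the median of all genes (0.03). The replication and mitosis members lie almost wholly to the right, and the MHC class I and class II members wholly to the left.

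Antigen presentation genes were lower in M6. MHC class II molecules show peptides to helper T cells and are made mostly by B cells, macrophages and dendritic cells, whereas class I molecules are made by almost every cell and are raised by interferon-γ. All 6 measured class II genes were lower in M6, with a median difference of -1.91, and all 6 were lower with any 1 tumor left out. H2-Aa, a class II α chain, had 10.07, 10.42, 10.35 and 10.52 in M6 and 12.26, 12.50, 12.28 and 12.12 in Met-1 (-1.95 ± 0.25, adjusted p = 5.8e-08). H2-Ab1, its β chain, was -1.87 ± 0.25, H2-DMa, which loads peptides, was -2.04 ± 0.27, and Cd74, the invariant chain, was -1.40 ± 0.19. Ciita, the master activator of class II genes, had 6.68, 6.83, 6.89 and 6.80 in M6 and 8.73, 9.82, 8.96 and 8.59 in Met-1 (-2.23 ± 0.38). M6 had the lowest mean of the 12 models for all 6 genes.

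All 9 measured genes of 12 listed for MHC class I and antigen processing were lower as well, with a median difference of -0.70 (8 without Met-1 replicate 2). The members named below are processing, activator and light chain genes, and no class I heavy chain is among them. Psmb8, a subunit of the immunoproteasome, had 9.61, 9.56, 9.53 and 9.56 in M6 and 10.85, 10.56, 10.94 and 10.68 in Met-1 (-1.19 ± 0.18). Psmb9 was -0.91 ± 0.18, Erap1, a peptide-trimming enzyme, was -0.81 ± 0.15, Nlrc5, the activator of class I genes, was -0.76 ± 0.16, and B2m, the class I light chain, was -0.37 ± 0.08. HRM-1 had lower means than M6 of Psmb8 (8.51), Psmb9 (8.65) and Nlrc5 (9.39), where M6 had 9.57, 9.35 and 9.82.

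The interferon list did not move as 1 group. Of 24 measured interferon-induced genes 7 were lower and 2 higher, with a median difference of 0.03, equal to that of all genes. Cxcl9, a chemokine induced by interferon-γ that attracts T cells, had 7.03, 7.48, 7.52 and 7.69 in M6 and 11.50, 11.15, 11.89 and 11.07 in Met-1, a difference of -3.98 ± 0.41 (SE) or 15.7-fold. The other 10 models had Cxcl9 means of 9.17 to 12.25, so that M6 was the model that stood apart. The GTPase genes Iigp1 (-3.00 ± 0.38) and Gbp3 (-1.64 ± 0.28), also induced by interferon-γ, fell with it, and Irgm1 was -1.41 ± 0.26. Oasl1, a gene of the antiviral response to type I interferon, was higher in M6 (1.15 ± 0.24), and Irf9 was higher by 0.31 ± 0.12 (adjusted p = 0.0459), a call that was lost without M6 replicate 1 or 2 or Met-1 replicate 1 or 4, at 0.20 to 0.31. Without M6 replicate 3, 5 genes of the list were higher.

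Of 22 T and NK cell genes 16 were lower in M6 and none higher, with a median of -1.17. Without Met-1 replicate 2 these were 8 and none, with a median of -0.56, and with only the 8 tumors in the fit 10 and none. The adjusted test of the methods called 2 of the 22, and not Cd3g, Cd3e or Cd4 (adjusted p = 0.064, 0.0753 and 0.091). Over all 19938 genes that test called 1933 higher and 1196 lower. Nkg7, a gene of cytotoxic granules, had 6.03, 6.33, 6.21 and 6.05 in M6 and 8.999, 11.42, 9.73 and 8.53 in Met-1 (-3.51 ± 0.49, and -2.93 without Met-1 replicate 2). Cd3g and Cd3e, chains of the T cell receptor complex, were -3.34 ± 0.63 and -2.59 ± 0.56, and -2.48 and -1.86 without that tumor, and all 4 of these values were called by limma. Cd4, the helper T cell coreceptor, was -2.50 ± 0.50 (-1.73 without Met-1 replicate 2, adjusted p = 0.00182). M6 had the lowest mean of the 12 models for 18 of the 22 genes.

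Other leukocyte lists were lower less evenly. Of 16 macrophage genes 8 were lower and 1 higher, and with 1 tumor left out the number lower was 4 without M6 replicate 2 or Met-1 replicate 3, 5 without M6 replicate 1 or Met-1 replicate 1, and up to 11 otherwise. Csf1r, the receptor that macrophages depend on, was -1.11 ± 0.27, Adgre1, which encodes F4/80, was -1.06 ± 0.30, and Mrc1, the mannose receptor, was -1.22 ± 0.40. Mrc1 was not called without M6 replicate 1 (-0.86, adjusted p = 0.122) or Met-1 replicate 3 (-1.07, adjusted p = 0.0615). Arg1, arginase 1, a gene of suppressive macrophages and some tumor cells, was the exception, with 9.63, 9.17, 9.43 and 10.22 in M6 and 6.55, 6.00, 7.997 and 7.03 in Met-1 (2.72 ± 0.72). Met-1 had the lowest Arg1 mean of the 12 models.

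Of 14 neutrophil genes 7 were lower and none higher (5 without Met-1 replicate 2). S100a8, a calcium-binding protein gene of neutrophils and inflamed epithelium, was at 6.38 to 6.49 in M6 and 8.997 to 9.49 in Met-1, a difference of -2.81 ± 0.20, and Met-1 had the highest mean of the 12 models. Ngp, a granule protein gene, had 5.10, 9.04, 7.64 and 5.72 in Met-1 and 5.07 to 5.31 in M6 (-1.69 ± 0.39), so its high values were those of Met-1 replicates 2 and 3. Lcn2, lipocalin 2, was -1.33 ± 0.52 (adjusted p = 0.0487), and this call was lost when any of the 8 tumors was left out (-1.19 to -1.43).

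The B cell score was 4.10 in Met-1 replicate 2, -0.41 to 0.80 in the other Met-1 tumors and -0.65 to -0.53 in M6, and none of its 10 genes was called at an adjusted p under 0.05 in the limma fit over 48 tumors. At an unadjusted p under 0.05, 4 of the 10 were lower, and the adjusted test of the methods called none. No share over all genes is given for an unadjusted p of this fit, so the unadjusted counts in this paragraph have no background. Without Met-1 replicate 1, 2 B cell genes were lower, and without Met-1 replicate 4, 3 were. The lymph node and dendritic cell list had 7 of 9 genes lower and 2 of 9 without Met-1 replicate 2, whose score was 2.29 against 0.02 to 0.58 in the other Met-1 tumors and -0.81 to -0.65 in M6. The adipocyte scores ran from -1.61 to 1.26 in M6 and from -0.64 to 1.96 in Met-1 with none of 11 genes called (none at an unadjusted p under 0.05, and none by the adjusted test of the methods). The part of lymph node or fat tissue in the immune values was not tested. The class I, class II, T cell, neutrophil, B cell and lymph node scores of all 4 M6 tumors were below those of every Met-1 tumor, replicate 2 included. The macrophage and adipocyte scores of the models overlapped. Of 19 fibroblast and matrix genes none was called by limma (3, all higher, at an unadjusted p under 0.05, and none by the adjusted test of the methods), and up to 2 were higher with 1 tumor left out, and of 13 endothelial genes 1 was higher and 1 lower (none to 2 lower with 1 tumor left out).

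**Figure D4:**
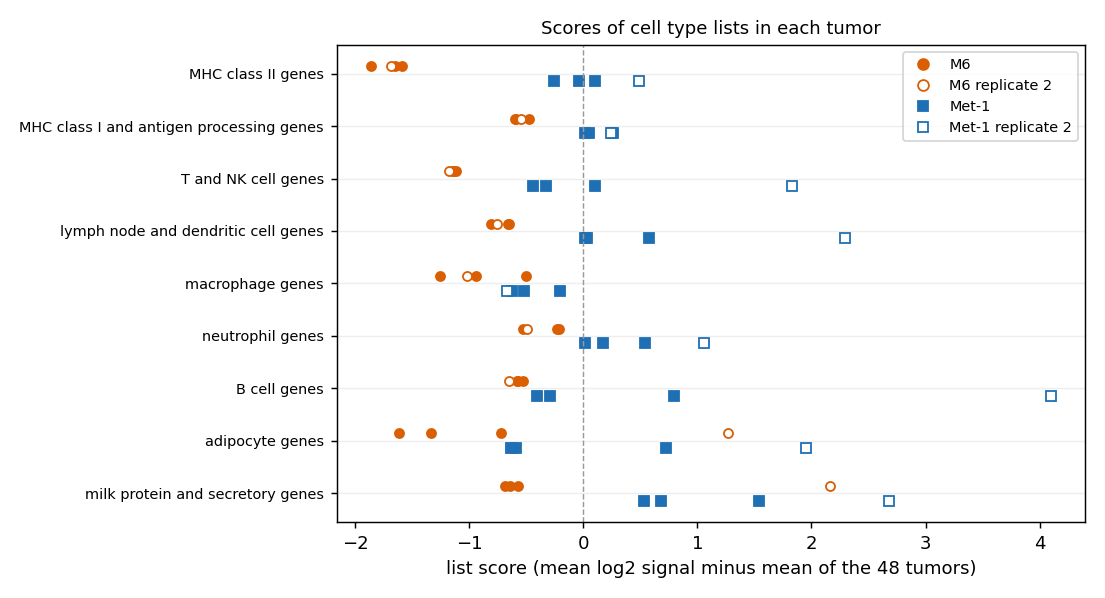
List score (x axis, average distance of the members' log2 signal from their 48-tumor means) of 9 lists in each M6 tumor (circles) and Met-1 tumor (squares), with the replicates numbered 2 open. The class II scores of M6 (-1.86 to -1.59) lie apart from those of Met-1 (-0.25 to 0.49). Met-1 replicate 2 has the highest class II, neutrophil, B cell, T cell, lymph node, adipocyte and milk scores.

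The study was about the isoforms of TGF-β, a secreted growth factor that is stored in a latent form and limits epithelial growth early in tumor development. Tgfb2 had 6.60, 7.73, 7.88 and 7.15 in M6 and 9.75, 8.47, 9.71 and 9.78 in Met-1 tumors. The groups did not overlap, with a difference of -2.09 ± 0.37 (SE, adjusted p = 1.7e-05) and of -2.41 without Met-1 replicate 2. Tgfb1 had 10.53, 10.66, 10.62 and 10.50 in M6 and 9.79, 10.81, 9.99 and 9.98 in Met-1, so that replicate 2 was the 1 Met-1 tumor above M6. The difference was 0.43 ± 0.17 (adjusted p = 0.0421), 0.66 without Met-1 replicate 2 (adjusted p = 0.000812), and not called without any other single tumor (0.32 to 0.46, adjusted p = 0.0547 to 0.195). Tgfb3 had 10.02, 10.56, 11.32 and 10.29 against 10.68, 10.16, 10.60 and 10.74, and its difference was 0.00 ± 0.19 (adjusted p = 0.999).

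Of 18 genes of TGF-β ligands, latency and activation 5 were higher and 4 lower in M6, and 3 were higher without M6 replicate 1, 2 or 4. Itgb8, an integrin chain that activates latent TGF-β, had 10.83, 10.40, 10.47 and 10.99 in M6 and 9.62, 8.26, 9.48 and 9.67 in Met-1 (1.41 ± 0.35). Ltbp4, a latent TGF-β binding protein, was 1.11 ± 0.24 higher and Mmp14, a membrane protease, 0.87 ± 0.14 higher. Nrros, which anchors latent TGF-β on macrophages, was -1.44 ± 0.27 and Ltbp2 was -1.20 ± 0.27. Of 15 receptors and Smads 5 were higher and 2 lower (3 and 2 without Met-1 replicate 2, and 1 lower without M6 replicate 1 or 4 or Met-1 replicate 3). Smad2 (0.53 ± 0.08) and Smad3 (0.49 ± 0.14), which carry the signal to the nucleus, were higher in all 4 M6 tumors. Tgfbr3, the coreceptor betaglycan, was -1.26 ± 0.47, and -0.999 (adjusted p = 0.133) without Met-1 replicate 2 and -0.93 (adjusted p = 0.177) without M6 replicate 1, and it was not called without M6 replicate 4 (-1.16) or Met-1 replicate 3 (-1.23) either. Bambi, a decoy receptor (0.53 ± 0.16), and Tgif1, a corepressor (0.50 ± 0.18), were not called without Met-1 replicate 2 (0.34, adjusted p = 0.0831, and 0.34, adjusted p = 0.159), nor was Bambi without M6 replicate 1 (0.37, adjusted p = 0.0779) or Tgif1 without M6 replicate 3 (0.48, adjusted p = 0.0547). Ski, another corepressor, was lower, at -0.20 ± 0.05.

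Of 18 target genes of the pathway 3 were higher, namely Bhlhe40 (1.07 ± 0.23), Junb (0.81 ± 0.15) and Id1 (0.69 ± 0.11), all transcription regulators. Ltbp2 and Tgfbi (-0.45 ± 0.18, adjusted p = 0.048) were lower, and Tgfbi was not called without Met-1 replicate 2 (-0.37, adjusted p = 0.145) or without M6 replicates 1, 2 or 4 or Met-1 replicate 3.

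Transcription factors of development differed gene by gene. Of 19 Sox genes 5 were higher and 4 lower. The relatives of Sox11 in its subgroup were Sox12, with 8.66, 8.67, 9.07 and 8.65 in M6 and 7.06, 7.66, 7.27 and 6.95 in Met-1 (1.53 ± 0.15), and Sox4, which was not called (0.29 ± 0.28, adjusted p = 0.49). Sox13 was 0.78 ± 0.12 higher. Sox10, a factor of neural crest and of mammary stem and luminal progenitor cells, had 7.86, 8.26, 6.90 and 7.33 in M6 and 10.82, 9.43, 10.52 and 10.69 in Met-1 (-2.78 ± 0.43), and Met-1 had the highest mean of the 12 models. Sox2, a factor of pluripotent cells, was -1.93 ± 0.20, with Met-1 replicate 2 at 5.70 between the other Met-1 tumors (6.99 to 7.71) and M6 (4.98 to 5.13), and Sox5 was -0.97 ± 0.15.

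Hox genes, which set position along the body axis and lie in 4 clusters, were called in 2 of these clusters. Of 37 measured Hox genes 6 were higher in M6 and none lower, and the 6 were Hoxa2, Hoxa3, Hoxa4, Hoxb2, Hoxb3 and Hoxb4. The share called higher was near the 16.9% of all genes. Hoxb2 had 10.15, 9.99, 9.61 and 9.77 in M6 and 7.83, 7.83, 7.93 and 7.62 in Met-1 (2.08 ± 0.17, or 4.22-fold). Hoxb3 was 1.11 ± 0.11 and Hoxb4 1.06 ± 0.10 higher, with the highest means of the 12 models in M6 for all 3 Hoxb genes. Hoxa2 was 1.24 ± 0.10, Hoxa3 1.00 ± 0.16 and Hoxa4 0.50 ± 0.09 higher. No gene of the other 2 clusters was called, the same 6 were called without Met-1 replicate 2, and 1 Hox gene was lower without M6 replicate 1. The place of these genes in their clusters was noticed in these values and was not tested.

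**Figure D5:**
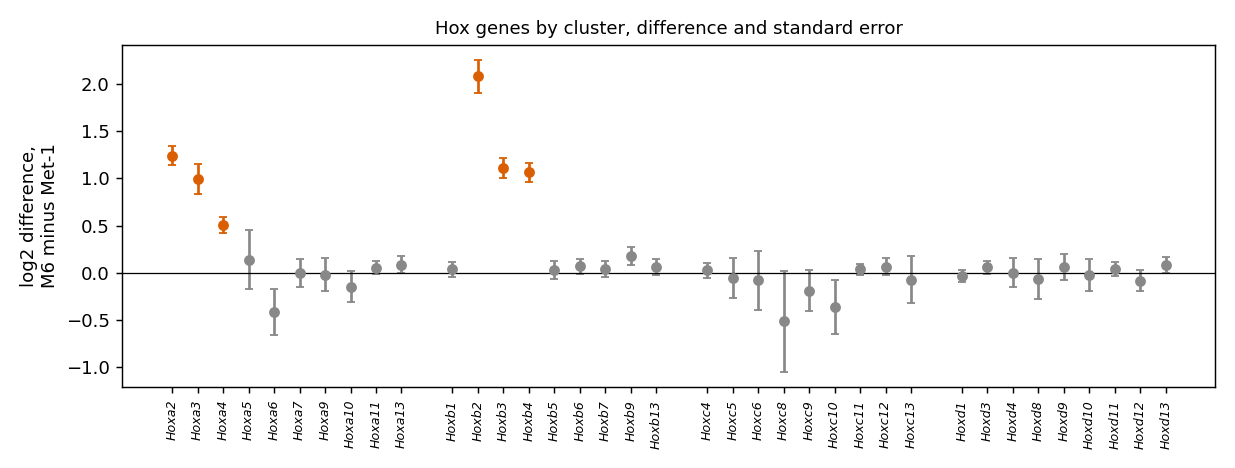
Log2 difference, M6 minus Met-1 (y axis, points), with its standard error (bars) for 37 Hox genes ordered along the a, b, c and d clusters, with called genes in orange. Hoxa2 to Hoxa4 and Hoxb2 to Hoxb4 lie between 0.50 and 2.08, and the other genes lie near 0 or have wide bars.

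Notch signaling, in which ligands of one cell activate receptors of the next, guides luminal fate. Of 20 measured genes 7 were higher and 2 lower. The receptors Notch3 (1.46 ± 0.33) and Notch1 (0.96 ± 0.17), the ligands Jag2 (1.63 ± 0.18) and Jag1 (0.95 ± 0.16) and the target genes Nrarp (2.26 ± 0.27) and Hey2 (2.06 ± 0.32) were higher in M6. Nrarp had 10.87, 10.46, 9.01 and 10.45 in M6 and 8.02, 7.50, 7.90 and 8.31 in Met-1, and Hey2 had 8.94, 8.48, 7.09 and 8.63 against 6.21, 6.53, 6.06 and 6.10. M6 replicate 3, the tumor low in epidermal genes, was the lowest M6 tumor for both. The ligand gene Dll1 (-1.42 ± 0.17) and Rfng, a glycosyltransferase that modifies the receptors (-0.91 ± 0.14), were lower.

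Of 49 measured Wnt pathway genes 5 were higher and 7 lower, and without Met-1 replicate 2 these were 3 and 7, and with only the 8 tumors in the fit 4 and 4. None of these shares was above those of all genes (16.9% higher and 14.8% lower). Lef1, the transcription factor at the end of the pathway, had 6.37, 6.19, 6.28 and 6.40 in M6 and 10.64, 10.998, 10.19 and 10.70 in Met-1 (-4.32 ± 0.47), and the means of the other 10 models lay between 6.25 and 7.89. Sfrp1, a secreted inhibitor (-1.66 ± 0.52), and Rnf43, a feedback inhibitor (-1.29 ± 0.25), were lower too. Sfrp1 was not called without M6 replicate 1 (-1.35, adjusted p = 0.0676). Nkd2, an inhibitor of the Dishevelled protein (1.61 ± 0.33), Wnt7b, a ligand (1.35 ± 0.42), and Fzd3, a receptor (1.07 ± 0.28), were higher, and Wnt7b was not called without Met-1 replicate 2 (1.03, adjusted p = 0.0671).

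Among growth factor genes, Igf1r, the receptor of the insulin-like growth factors, had 10.05, 9.98, 9.60 and 10.04 in M6 and 7.28, 8.78, 7.81 and 7.22 in Met-1 (2.14 ± 0.25, or 4.41-fold). Met-1 was the model that stood apart, since the other 10 models had means of 9.52 to 10.77. Of the 13 genes of this pathway 1 was higher (2 without M6 replicate 1 or 2) and 4 lower, among them the binding protein genes Igfbp5 (-2.87 ± 0.94) and Igfbp4 (-0.88 ± 0.23) and Igf2r (-0.96 ± 0.26). Igfbp5 was not called without M6 replicate 1 (-2.58, adjusted p = 0.0559). Of 14 ErbB receptors and ligands 3 were higher and 2 lower. The receptors Egfr (10.25 to 10.87 against 9.35 to 9.85, 1.06 ± 0.30) and Erbb2 (9.65 to 10.30 against 8.35 to 9.38, 1.04 ± 0.18) had their highest means of the 12 models in M6. Hbegf, a ligand gene of the list, was 1.38 ± 0.45 higher, which was not called without Met-1 replicate 2 (1.10, adjusted p = 0.0793) or M6 replicate 3 (1.18, adjusted p = 0.063). The neuregulin gene Nrg2 was -1.37 ± 0.13, and Nrg1 (-0.62 ± 0.24, adjusted p = 0.0496) was called without Met-1 replicate 2 (-0.98, adjusted p = 0.000322) but not without M6 replicate 1, 2 or 4 or Met-1 replicate 1, 3 or 4 (-0.37 to -0.64).

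Of 18 imprinted growth genes 1 was higher and 4 lower. Plagl1 (-1.95 ± 0.47) and Peg3 (-1.76 ± 0.43), which are expressed from the paternal allele, were lower, with Peg3 at 6.73 to 7.51 in M6 and 8.52 to 9.19 in Met-1. Mest was 0.96 ± 0.37 higher (adjusted p = 0.0397), which was lost when any tumor but Met-1 replicate 3 was left out (0.69 to 1.02). Of 20 claudins 5 were higher, led by Cldn10 (7.44 to 8.84 against 5.81 to 5.91, 2.48 ± 0.27), Cldn4 and Cldn23 (0.53 ± 0.10), and 2 were lower, Cldn2 and Cldn1 (-1.68 ± 0.59). Cldn1, the claudin of the skin barrier, was not called without M6 replicate 1 or 2 or Met-1 replicate 1, 3 or 4 (-1.53 to -1.63).

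Of 22 glutathione and NRF2 target genes 2 were higher and 4 lower, against 16.9% and 14.8% of all genes, so the list was near or below the background. Nqo1, a quinone reductase, had 8.47, 8.53, 8.86 and 8.77 in M6 and 5.91, 5.93, 5.92 and 6.18 in Met-1 (2.67 ± 0.25), and Gsr, glutathione reductase, was 1.40 ± 0.15 higher. Mgst1, a membrane glutathione transferase, had 7.16, 10.06, 8.87 and 8.34 against 11.18 to 11.51 (-2.79 ± 0.63), and Gstt3 (-1.36 ± 0.24) and Mgst2 (-1.05 ± 0.26) were lower as well. Of 19 hypoxia and glycolysis genes 1 was higher and 2 lower, below the shares of all genes, 4 were lower without Met-1 replicate 2, and 2 were higher without Met-1 replicate 3. Egln3, an oxygen-sensing hydroxylase, had 9.63, 9.41, 9.12 and 9.12 in M6 and 11.88, 9.78, 11.88 and 11.80 in Met-1 (-2.01 ± 0.34), Aldoc, an aldolase, was -1.62 ± 0.28, and Ankrd37 was 1.25 ± 0.26 higher.

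The remaining lists are given by counts only, with the range when 1 tumor was left out. Of 12 mesenchymal transition genes 3 were higher (1, without M6 replicate 3, to 3) and 2 lower (2 to 3), and with only the 8 tumors in the fit none was higher and 1 was lower. Of 27 neuronal and neuroendocrine genes 2 were higher (1, without M6 replicate 1, to 3) and 2 lower (1 to 3), next to the large increase of Sox11. Of 33 chemokine genes 3 were higher (2 to 3) and 6 lower (3, without M6 replicate 1, to 8). Of 20 matrix metalloproteinases and their inhibitors 4 were higher (2, without M6 replicate 1 or Met-1 replicate 1 or 3, to 5) and 1 lower, and of 18 sterol and fatty acid synthesis genes 3 were higher (3 to 4) and 1 lower (1 to 2).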

How the data were processed

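Primary tumors of 12 transplanted mammary tumor models, 4 per model, had been hybridized by the authors to Affymetrix Mouse Gene 1.0 ST arrays. The deposited log2 values, 1 per probe cluster and array, were used as given. The summarization and normalization software is not given in the sources used here. They ran from 3.49 to 14.12, array medians from 6.76 to 6.99, and no 2 arrays were identical. Of 35556 clusters, 21789 named 1 gene in the platform annotation, and each of 19938 genes was represented by its brightest cluster (mean of 48 arrays). No detection call was used, so signals near the low end were not separated from background.

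M6 was compared with Met-1 by limma 3.58.1 in R 4.3.3, with 1 group per model over the 48 tumors, moderated variances and Benjamini-Hochberg adjustment over all genes. The spread of a gene is that between independent grafts of the same line, pooled over the models of all 48 tumors. It is not that of the M6 and Met-1 tumors alone. For a gene such as Sox11 it was smaller than the spread these 8 tumors showed. The p-values of M6 against Met-1 say nothing of other lines. Single genes were also checked by an exact 2-sided permutation test of 4 against 4 tumors. The 8 tumors, the gene lists and the tests were chosen with earlier results of these data known, and the epidermal list was written after the largest differences had been seen. The genes named were Sox11, 2310057J18Rik and the Tgfb genes, the 15 largest non-overlapping differences in each direction called with and without Met-1 replicate 2, up to 3 called list members in each direction, close relatives and cell type markers. Further list members, among them Cdc45, Top2a, Mki67, Cd4, Nlrc5 and B2m, were added after their values were seen. Clusters naming several genes (1621) or none (12146) were not used for genes. Listed genes with no cluster naming them alone under the listed symbol, Trp53 and Cdkn1a among them, were not analysed here. Whether the array measures them otherwise was not examined. Promoters came from the RefSeq table of GRCm38.p6. The limma fit, and no other step, was tested on simulated data with known differences, normal noise and no aberrant tumor. Alternatives were quantile normalization, centring, the mean of a gene's clusters, a filter on the dimmest 30% of genes, other priors, array weights, the 8 tumors alone, a replicate block, the methods' t-test, and leaving out each tumor. Python 3.11.15, pandas 2.3.3 and matplotlib 3.10.9 were used for summaries and plots.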

Additional observations from a re-analysis of the deposited data

Results flagged for a closer look

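Among 422 groups of 4 tumors (the named genes and the list scores, each in M6 and in Met-1), 60 held 1 tumor whose gap to its nearest neighbour took up more of the group's whole range than Dixon's critical value allows. Chance gives about 1 in 20 groups. The tumor was Met-1 replicate 2 in 32 groups, M6 replicate 3 in 16, M6 replicate 2 in 7, Met-1 replicate 4 in 3 and M6 replicate 1 in 2. The values are log2 signals unless called scores.

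Met-1 replicate 2 was the low tumor for genes high in Met-1, with Clca3a2 at 10.95 (next tumor 12.10), Clca2 at 9.17 (11.13), Tc2n at 9.12 (11.25), Capn6 at 7.83 (10.56), Stk39 at 10.11 (11.46), Tgfb2 at 8.47 (9.71), Elf5 at 9.79 (10.81), Nrg2 at 7.40 (8.36), Igfbp5 at 12.23 (12.85), Igf2r at 9.57 (10.62), Gstt3 at 9.13 (10.48), Egln3 at 9.78 (11.80) and Lcn2 at 13.10 (13.33). It was also the low tumor for epithelial and dividing cell genes, with Epcam at 10.40 (11.38), Cgn at 7.27 (7.76), Perp at 9.31 (10.59), E2f7 at 8.02 (8.44), Kif2c at 7.74 (8.77), Cenpf at 7.66 (8.39), Foxm1 at 8.95 (9.60), Ccne1 at 8.71 (9.16), Tk1 at 9.72 (10.87) and Birc5 at 8.45 (9.83). The same tumor was low for Tnfrsf10b at 8.87 (9.48), Itgb8 at 8.26 (9.48), Bhlhe40 at 9.15 (10.25) and Fzd3 at 6.45 (7.83), and high for Trp63 at 7.70 (7.18). Its scores were low for the DNA replication genes (-0.55, next -0.12), mitosis genes (-0.97, next -0.14), TGF-β ligand and latency genes (-0.35, next 0.04) and hypoxia and glycolysis genes (-0.70, next 0.16).

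M6 replicate 3 was the low M6 tumor for Dsg3 at 9.08 (10.52), Rhov at 9.19 (10.63), Cdh1 at 11.08 (12.00), Cldn4 at 8.87 (10.38), Ovol1 at 6.73 (7.65), Clca2 at 5.76 (6.15), Oasl1 at 9.13 (9.89), Jag1 at 9.78 (10.17), Igf1r at 9.60 (9.98) and Gsr at 11.30 (11.73), and its score of the epithelial junction and keratin genes was 0.71 (next 1.61). It was the high M6 tumor for Trp63 at 8.98 (7.37), Stk26 at 6.51 (5.54), Capn6 at 6.85 (5.57), Sox12 at 9.07 (8.67) and Ccne1 at 9.73 (9.38).

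M6 replicate 2 was the high M6 tumor for Csn3 at 9.45 (4.96), Csn1s1 at 11.75 (5.28), Car6 at 6.39 (5.92), Scgb2b27 at 4.59 (4.46) and Fzd3 at 9.08 (8.41), with scores of 2.17 (next -0.58) for the milk genes and 0.66 (next -0.02) for the sterol and fatty acid synthesis genes. M6 replicate 1 had Irgm1 at 9.98 (9.36) and Hoxa3 at 6.90 (7.02). Met-1 replicate 4 had Krt6b at 5.41 (5.34), B2m at 12.81 (12.97) and Nqo1 at 6.18 (5.93).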

How the results depend on the processing

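Against 3372 genes higher and 2952 lower, leaving out 1 tumor gave 2955 to 3445 higher and 2509 to 3133 lower. Array weights gave 5231 higher, the 8 tumors alone 1788 lower, the t-test of the methods after adjustment 1933 higher and 1196 lower, and a minimum log2 difference of 1 gave 680 and 830. The cause was not tested. Of 158 called named genes, 49 lost the call by that t-test, 20 with the 8 tumors alone, 14 without Met-1 replicate 2, 14 without both replicates 2, 6 to 16 without another tumor and 0 to 3 under the other settings, and none reversed. With the 8 tumors alone the genes called lower were 4 of the macrophage, 4 of the neutrophil, 2 of the lymph node and dendritic cell and 9 of the interferon-induced list, and those called higher and lower were 3 and 3 of the TGF-beta ligands, 3 and 1 of the receptors and Smads, 3 and 1 of the TGF-beta targets, 4 and 1 of the p53 list, 5 and 1 of the cyclin list, 3 and 1 of the ErbB list, 1 and 2 of the insulin-like growth factor list, 2 and 1 of the neuronal list and 2 and 0 of the epithelial junction list. The reversed values were all of genes that were not called. Tgfb3 was -0.28 with array weights, -0.13 without Met-1 replicate 2, -0.0039 without M6 replicate 2, -0.26 without M6 replicate 3 and -0.13 without both replicates 2, and ran from -0.26 to 0.18 with 1 tumor left out. Tk1 was -0.0174 by the mean of its clusters, -0.20 with array weights, -0.26 without Met-1 replicate 2 and -0.27 without both replicates 2, the highest value being 0.13 without Met-1 replicate 4. Birc5 was 0.0195 without M6 replicate 3 and 0.0739, 0.0723 and 0.0570 without Met-1 replicates 1, 3 and 4, with a range down to -0.41 (without both replicates 2). Sox4 was -0.0264 without both replicates 2 and at most 0.47, without Met-1 replicate 4.

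The replicate numbers were not taken to pair the tumors. Deviations of same-numbered tumors correlated at 0.0034, 0.089, 0.171 and 0.115 for numbers 1 to 4, and 3 of the 4 M6 tumors correlated best with the Met-1 tumor of their own number. With the replicate block, 3371 genes were higher and 2942 lower, and 2 called named genes lost the call. With 4 arrays a model, the number of tumors limits the precision.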

Other observations

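The differences were unequal along the chromosomes. Over 14341 genes with a mean log2 signal above 6 and a RefSeq position, 21.5% were higher and 18.9% lower in M6. On chromosome 8, 389 of 769 such genes (50.6%) were higher, 51 were lower and the median difference was 0.31. On the X chromosome, 206 of 406 genes (50.7%) were lower, 18 were higher and the median difference was -0.37, or -0.45 without Met-1 replicate 2. Chromosome 3 had 227 of 673 genes (33.7%) lower and 62 higher, with a median of -0.19.

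Runs of 40 neighbouring genes held the extremes. On chromosome 11, the run from Mrpl58 to Sphk1 had a median difference of -0.70, with 28 genes lower and 1 higher, and Met-1 stood 0.75 above the median of the other 10 models while M6 stood 0.05 above it. On chromosome 3, the run from Adh1 to Adgrl4 had a median of -0.60 with 29 genes lower. On chromosome X, the run from Klhl13 to Aifm1 had a median of -0.64 with 27 lower, and on chromosome 8 the run from Slc7a6 to St3gal2 had a median of 0.50 with 28 higher and 2 lower. The runs were picked as the extremes of each chromosome after the values were seen and have no test. DNA copy number was not analysed here.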
